A study of Arabidopsis thaliana with 12 samples.

Results

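The tau (GSTU) and phi (GSTF) classes are the largest glutathione transferase classes of plants, and 38 Arabidopsis thaliana genes of them are described here, 27 tau and 11 phi, of 33602 genes measured. The members are a list of GSTU and GSTF loci, and the rule for the list uses no measured value. The table also holds GSTU21, GSTF4 and GSTF5, which are outside the list. Glutathione transferases join the thiol of glutathione to reactive or toxic compounds, and some carry out glutathione peroxidase reactions or bind and carry small molecules. Many tau and phi genes are known to be induced in leaves by pathogens, salicylic acid, herbicide safeners, oxidised lipids and other oxidative stress. The glutathione conjugates they make are moved into the vacuole by transporters of the ABCC family.

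RNA was taken from rosettes of 3-week-old plants grown on soil in 16 h light and 8 h dark. There were 4 genotypes with 3 biological replicates each. In ceh1 the mutated gene is HDS, whose plastid enzyme consumes the isoprenoid precursor methyl-erythritol cyclodiphosphate, so that this metabolite builds up, and it was set against the wild type, Col-0. The ceh1/eds16 plants carry ceh1 together with eds16, a mutation of ICS1, the isochorismate synthase that makes most salicylic acid under stress. They were set against eds16, which carries the ICS1 mutation alone. The mutations are in all cells of the plant, and the title of the series asks which responses to methyl-erythritol cyclodiphosphate depend on salicylic acid.

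The values are normalized counts, that is reads per gene after the authors' division by a size factor of each library. The libraries held between 4.99 and 18.08 M reads in genes. Depth was 4.99 to 7.33 M in Col-0 and 7.4 to 18.08 M in ceh1, which did not overlap. It was 6.48 to 8.9 M in eds16 and 7.15 to 8.7 M in ceh1/eds16. ICS1 averaged 666 ± 31.2 in ceh1 and 245 ± 27.6 in Col-0, against 21 ± 7.06 in ceh1/eds16 and 15.2 ± 4.47 in eds16 (SD, n = 3 each), in accord with the eds16 labels. PR1, a salicylic acid response gene, averaged 7388 ± 1949 in ceh1, 311 ± 117 in Col-0, 85.7 ± 23.6 in ceh1/eds16 and 43.3 ± 8.86 in eds16. HDS transcript, which a mutation of HDS need not change, averaged 1589 ± 240.0 in ceh1 and 3765 ± 159 in Col-0, and 2338 ± 274 in ceh1/eds16 and 3683 ± 287 in eds16. The 3 leaf markers RBCS1A, LHCB1.1 and RCA summed to 87340 to 102000 in ceh1 libraries, against 201030 to 224830 in Col-0 libraries. They summed to 87715 to 131670 in ceh1/eds16 libraries, against 185660 to 198290 in eds16 libraries. The flower markers AG, AP3 and PI summed to 11 to 34.6 in ceh1 and 55.9 to 87.4 in Col-0 libraries, and to 25.9 to 54.2 in ceh1/eds16 and 99.8 to 143 in eds16 libraries. The 2 seed markers summed to at most 3.24 in any library. The 3 root markers summed to 733 to 952 in ceh1 and 116 to 191 in Col-0 libraries, and to 713 to 885 in ceh1/eds16 and 187 to 221 in eds16 libraries, nearly all of it PYK10, while the root hair markers EXPA7 and COBL9 were at 0 and at most 1.08. The leaf and flower sums were thus lower with ceh1 and the root sum higher, in both backgrounds. The part of such shifts in the members' changes was not tested. One library, ceh1/eds16 replicate 3, was unlike the rest of its genotype: per gene it differed from its fellow replicates by 23.5 and 23.6 times the sampling variance, where other replicate pairs differed by 2.48 to 8.90 times. Results that rest on it are given with and without it.

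Many members lie beside each other and resemble each other closely. On chromosome 2, GSTU7, GSTU6, GSTU5, GSTU4, GSTU3, GSTU2 and GSTU1 formed 1 run of 7 genes between positions 12617936 and 12632538, with at most 1 other protein-coding gene between neighbours (TAIR10.1, RefSeq annotation). Others were the pairs GSTF7 and GSTF6, GSTU18 and GSTU17, GSTU13 and GSTU14, GSTU12 and GSTU11, and GSTF9 and GSTF10, as well as GSTU24 to GSTU26 and GSTU23 to GSTU19. Coding sequences were a median of 59.4% identical between tau members, 58.7% between phi members and 54.7% between the classes. The pairs with the highest identity were GSTF6 with GSTF7 (94.7%) and GSTF2 with GSTF3 (94.5%), and no pair of tau members was above 87.7%. Of all 25-base stretches of GSTF6 coding sequence, 37% were also in GSTF7, and of those of GSTF2 26.5% were also in GSTF3, so that short reads could be split between the genes of a pair. The first 90 coding bases of each are shown 5′ to 3′ to let the likeness be seen, with the bases that differ within a pair in capitals (1 base for GSTF6 and GSTF7, 3 bases for GSTF2 and GSTF3; sequence from RefSeq, TAIR10.1, while the submitters' notes name TAIR10).
GSTF6, chr1:662102-662191, minus strand: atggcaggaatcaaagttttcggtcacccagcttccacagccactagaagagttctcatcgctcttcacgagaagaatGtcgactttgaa
GSTF7, chr1:659616-659705, minus strand: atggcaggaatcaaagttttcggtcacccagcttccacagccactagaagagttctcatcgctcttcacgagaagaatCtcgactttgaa
GSTF2, chr4:1111442-1111531, minus strand: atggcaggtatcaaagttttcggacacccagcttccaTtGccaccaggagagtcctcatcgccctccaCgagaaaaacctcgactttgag
GSTF3, chr2:852017-852106, minus strand: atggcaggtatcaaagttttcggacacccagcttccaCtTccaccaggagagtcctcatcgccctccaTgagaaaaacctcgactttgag

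The 250 bases upstream of the annotated gene start were searched on both strands for TGACG, the core bound by TGA factors, for TTGACC or TTGACT, the W-box bound by WRKY factors, and for CACGTG, the G-box. TGACG and the W-box share the letters TGAC but differ in the next letter, so the same TGAC never counts for both. Matches on opposite strands can share an end base. At least 1 TGACG was found in 11 of 27 tau members and 3 of 11 phi members, against 18.6% of 27443 promoters of the same length. TTGACC or TTGACT was found in 14 of 27 tau and 6 of 11 phi members, against 28.4% of all promoters. CACGTG was found in 2 of 27 tau and 1 of 11 phi members, against 6.49%. Upstream sequences are printed for 5 members described below, all of them with a match: the strongly changed GSTF7, GSTU3 and GSTU9, and the neighbours GSTU17 and GSTU18, which changed less. They read 5′ to 3′ towards the gene, with matches to any of the 3 motifs on either strand in capitals. All of the stretch printed for GSTU18 lies within the GSTU17 gene (positions 3396883 to 3398358, same strand). A match of letters does not show that a factor binds there. The 5 were not chosen to represent the members, and other changed members had no match to any of the 3 motifs. Among these were GSTU8, GSTF2 and GSTF9, which rose in both backgrounds, and GSTU20 and GSTF11, which fell in both.
GSTF7, chr1:659981-660230, minus strand: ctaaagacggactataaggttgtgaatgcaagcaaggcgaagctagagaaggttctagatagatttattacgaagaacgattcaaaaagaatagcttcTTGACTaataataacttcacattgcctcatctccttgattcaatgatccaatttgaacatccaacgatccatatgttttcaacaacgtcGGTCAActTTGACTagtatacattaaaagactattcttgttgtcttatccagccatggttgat
GSTU3, chr2:12629641-12629890, minus strand: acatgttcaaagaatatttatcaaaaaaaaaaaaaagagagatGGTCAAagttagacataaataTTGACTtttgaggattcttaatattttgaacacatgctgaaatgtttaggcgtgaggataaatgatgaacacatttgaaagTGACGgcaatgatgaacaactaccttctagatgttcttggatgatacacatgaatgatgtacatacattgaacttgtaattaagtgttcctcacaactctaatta
GSTU9, chr5:25089627-25089876, minus strand: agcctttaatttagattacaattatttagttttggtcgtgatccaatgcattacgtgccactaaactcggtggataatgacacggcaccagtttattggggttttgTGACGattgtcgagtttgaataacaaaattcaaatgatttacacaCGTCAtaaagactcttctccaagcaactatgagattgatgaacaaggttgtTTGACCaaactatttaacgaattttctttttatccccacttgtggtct
GSTU17, chr1:3398359-3398608, minus strand: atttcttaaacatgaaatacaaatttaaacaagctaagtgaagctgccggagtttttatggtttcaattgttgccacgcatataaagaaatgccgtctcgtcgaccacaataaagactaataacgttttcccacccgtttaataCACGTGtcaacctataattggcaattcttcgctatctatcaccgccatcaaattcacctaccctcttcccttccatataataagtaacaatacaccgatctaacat
GSTU18, chr1:3396954-3397203, minus strand: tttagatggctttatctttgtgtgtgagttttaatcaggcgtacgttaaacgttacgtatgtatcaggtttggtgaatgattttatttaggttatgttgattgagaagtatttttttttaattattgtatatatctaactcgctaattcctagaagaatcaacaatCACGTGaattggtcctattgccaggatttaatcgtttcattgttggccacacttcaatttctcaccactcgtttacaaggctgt

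Of the 38 members, 30 passed the limit of 10 on the normalized count averaged across all 12 libraries and were tested, 21 of 27 tau and 9 of 11 phi. The members just inside this limit were GSTU23, GSTU6 and GSTU28, with means of 12.2, 14.3 and 14.4, and those just outside it were GSTU2 and GSTF14, with 4.17 and 3.19. Of the 21 tau members, 5 (GSTU3, GSTU8, GSTU9, GSTU11 and GSTU24) had means under 10 in both Col-0 and eds16 and passed only through the ceh1 and ceh1/eds16 libraries. They had to differ between those groups, so the counts of tau members below are given with and without these 5. The reverse held for GSTU23, with means of 4.74 in ceh1 and 4.72 in ceh1/eds16. It passed only through the Col-0 and eds16 libraries, so it had to be lower with ceh1. It is among the tau members counted as lower in both ceh1 comparisons below.

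Phi transcripts outweighed tau transcripts in ceh1 and ceh1/eds16, by less in Col-0, and not beyond the spread of libraries in eds16. The 11 phi members summed to 23114 ± 1030 normalized counts per kilobase of exon in ceh1 and 8474 ± 353 in Col-0, and to 31327 ± 7249 in ceh1/eds16 and 8945 ± 479 in eds16 (SD, n = 3 each). By library the phi sum was 22958, 24213 and 22172 in ceh1, 8319, 8226 and 8878 in Col-0, 27382, 26905 and 39693 in ceh1/eds16, and 8858, 9462 and 8516 in eds16. All 6 libraries that carry ceh1 were above all 6 that do not, and the sum in ceh1/eds16 replicate 3 was the highest. Phi members took 0.395% of all reads in ceh1 and 0.127% in Col-0, and 0.493% in ceh1/eds16 and 0.133% in eds16. The 27 tau members together summed to 6748 ± 270 per kilobase in ceh1 and 7048 ± 396 in Col-0, and to 7486 ± 1802 in ceh1/eds16 and 8861 ± 436 in eds16. Tau sums of ceh1 and Col-0 libraries overlapped (6475 to 7015 against 6597 to 7340). Tau sums were 6515, 6378 and 9565 in ceh1/eds16 libraries, against 9241, 8386 and 8955 in eds16 libraries. These overlapped only through ceh1/eds16 replicate 3, and the other 2 ceh1/eds16 libraries lay below every eds16 library. In bulk RNA, fewer cells of a type and less RNA per cell cannot be told apart.

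**Figure D1:**
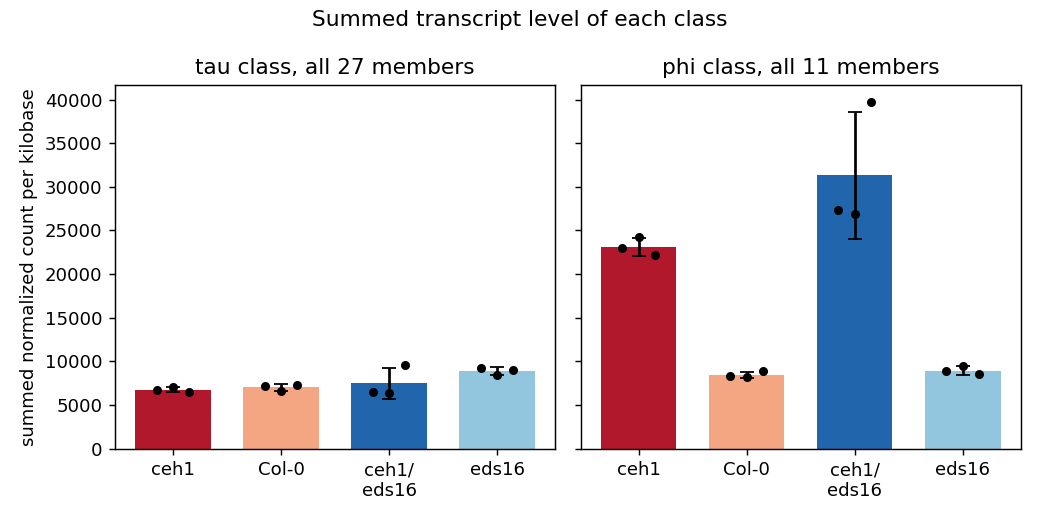
Summed normalized counts per kilobase of exon of the 27 tau members (left) and the 11 phi members (right) in each genotype, with bars for means, error bars for SD and points for the 3 libraries. Phi sums of the ceh1 and ceh1/eds16 libraries lay between 22172 and 39693 and those of Col-0 and eds16 libraries between 8226 and 9462, while tau sums ranged from 6378 to 9565 over all libraries.

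A few genes made up most of each class. GSTF9, which is linked to glucosinolate synthesis, was the highest member per kilobase in each genotype, with 9447 ± 517 in ceh1, 4619 ± 423 in Col-0, 11990 ± 3600 in ceh1/eds16 and 5891 ± 423 in eds16. It held 40.9% of the phi sum in ceh1 and 54.5% in Col-0, and 38.3% in ceh1/eds16 and 65.9% in eds16. In ceh1 the order of levels per kilobase after GSTF9 was GSTF10 (4364 ± 273), GSTF2 (3830 ± 390.0), GSTF6 (2848 ± 131), GSTU19 (2589 ± 71.7), GSTF7 (1739 ± 77) and GSTU20 (1086 ± 102), where the libraries of GSTF10 and GSTF2 overlapped. In Col-0 it was GSTU19 (2467 ± 95.8), GSTU20 (2136 ± 557), GSTF10 (1486 ± 250), GSTF2 (1250 ± 59.6), GSTU18 (648 ± 65.5) and GSTU5 (640.0 ± 51.6). In the Col-0 order the libraries of the neighbours GSTU19 and GSTU20, GSTU20 and GSTF10, GSTF10 and GSTF2, and GSTU18 and GSTU5 overlapped.

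In ceh1 against Col-0, 22 of the 30 members tested were called at an adjusted p under 0.05 (limma), against a background of 50.2% of the 18289 genes tested. Of the 9 phi members 6 rose and 1 fell, and of the 21 tau members 10 rose and 5 fell, where the background was 25.2% higher and 25% lower. Without the 5 tau members that passed only through the ceh1 groups, 5 of 16 rose and 5 of 16 fell. These 16 still held GSTU23, which had to be lower with ceh1, and no such genes were left out of the background. The median log2 fold change was 1.13 for phi and 0.21 for tau, or 0.06 for these 16 tau members, and 0.01 for all genes tested. The tau median minus the phi median was thus -0.92, but it was -0.18 with no filter other than a mean above 0 and -1.21 with a filter at 50, so its size rests on which low members are taken in. With a filter at 50, 5 tau members rose, and with libraries scaled to equal totals 3 tau members fell. For libraries scaled to equal totals, the median of all genes shifted by 0.23 in ceh1 against Col-0, by 0.11 in ceh1/eds16 against eds16 and by -0.12 in the interaction.

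**Figure D2:**
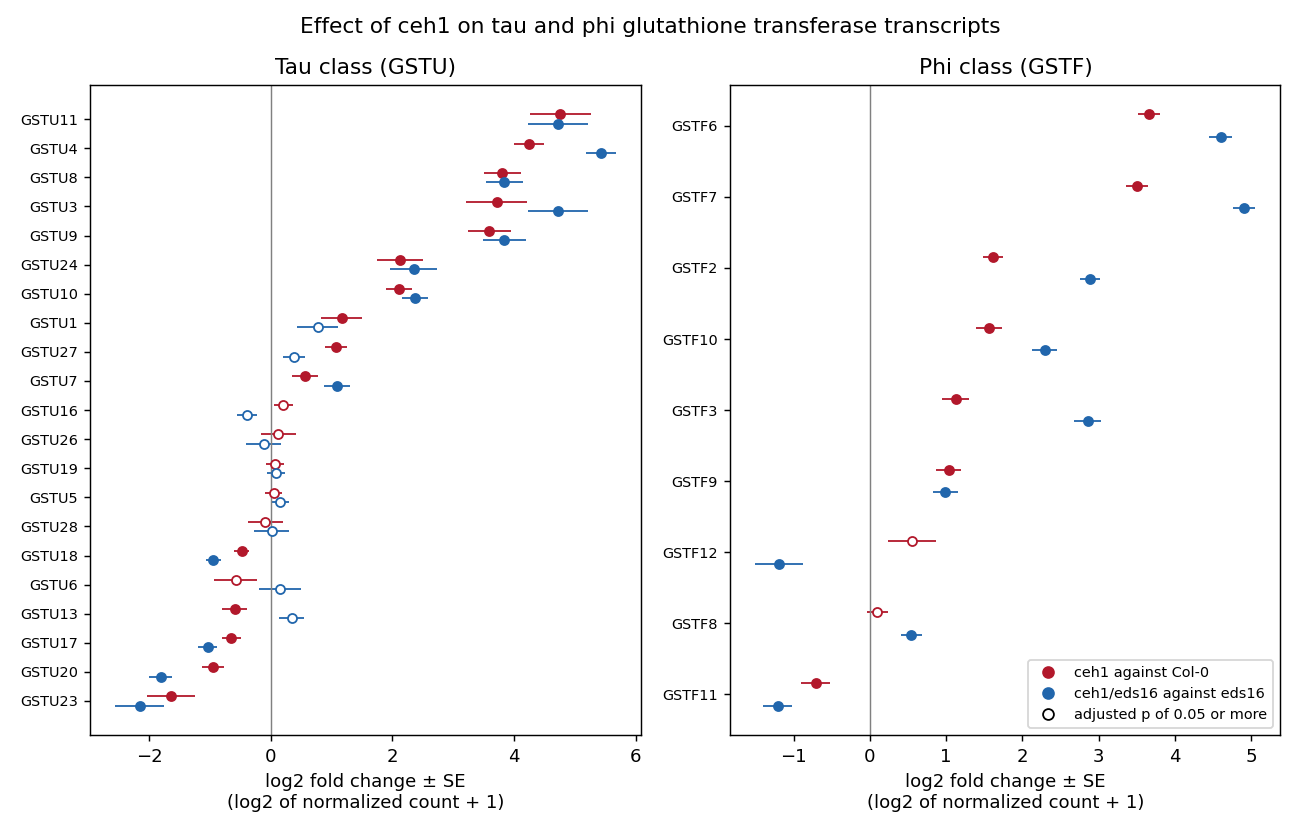
Log2 fold changes with standard errors (x axis, log2 of normalized count + 1) of the 21 tau members (left) and 9 phi members (right) tested, for ceh1 against Col-0 (red) and ceh1/eds16 against eds16 (blue), with open points where the adjusted p was 0.05 or more. Tau members ran from -1.63 to 4.77 in ceh1 against Col-0, on both sides of 0, while 6 of the 9 phi members rose by 1.04 to 3.66.

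GSTF6 and GSTF7, neighbours on chromosome 1, had the largest phi changes. GSTF6 takes part in the synthesis of the indole phytoalexin camalexin, and both are classic pathogen and salicylic acid response genes. GSTF6 (AT1G02930, positions 661088 to 662475, minus strand) read 3415, 3510.4 and 3207 in ceh1 libraries, against 228, 319 and 258 in Col-0 libraries. Without working ICS1 it read 4358, 3845 and 5125 in ceh1/eds16 libraries, against 174, 157 and 218 in eds16 libraries. The groups were far apart in both backgrounds, by 12.6-fold in ceh1 (log2 3.66 ± 0.15 SE, adjusted p = 4.43e-11, limma) and 24.3-fold in ceh1/eds16 (4.60 ± 0.15, adjusted p = 1.23e-12). GSTF7 (AT1G02920, positions 658578 to 659980, minus strand) read 2036, 2077 and 2214 in ceh1 libraries, against 153, 212 and 194 in Col-0 libraries. It read 2812, 2549 and 3641 in ceh1/eds16 libraries, against 85.4, 104 and 106 in eds16 libraries. The rise was 11.3-fold in ceh1 (3.50 ± 0.15, adjusted p = 6.48e-11, limma) and 30.5-fold in ceh1/eds16 (4.91 ± 0.15, adjusted p = 1.14e-12). Because reads could be split between these near-identical genes, their sum is also given: 5486 ± 88.7 in ceh1 and 455 ± 75.1 in Col-0, and 7444 ± 1209.5 in ceh1/eds16 and 281 ± 36.6 in eds16.

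GSTF2 and GSTF3, the other near-identical pair, are on chromosomes 4 and 2. GSTF2 (AT4G02520, chromosome 4, 1110343 to 1112033, minus strand) binds auxin and camalexin and is a membrane-associated ethylene and salicylic acid response gene. It read 5756, 6138 and 5010.1 in ceh1 libraries, against 1750.1, 1925 and 1843 in Col-0 libraries. In ceh1/eds16 libraries it read 6737, 6117 and 7377, against 752, 1055 and 954 in eds16 libraries. All libraries with ceh1 were above all without it, and GSTF2 rose by 1.61 ± 0.13 in ceh1 (adjusted p = 5.71e-08, limma) and by 2.88 ± 0.13 in ceh1/eds16 (adjusted p = 4.5e-11). GSTF3 (AT2G02930, chromosome 2, 851156 to 852321, minus strand) read 286, 281 and 288 in ceh1 libraries, against 125, 132 and 133 in Col-0 libraries. It read 480.2, 463 and 384 in ceh1/eds16 libraries, against 64.3, 42.6 and 78.7 in eds16 libraries. Its rise was 1.13 ± 0.18 in ceh1 (adjusted p = 6.4e-05, limma) and 2.85 ± 0.18 in ceh1/eds16 (adjusted p = 1.15e-09). The summed level of the pair was 5919.6 ± 570.1 in ceh1 and 1969 ± 91.3 in Col-0, and 7186 ± 591 in ceh1/eds16 and 982 ± 147 in eds16. Of the 1471 exon bases of GSTF2, 890 overlap exons of TOC159, a chloroplast import receptor gene on the other strand, and the sources used here do not say whether counting used strand. TOC159 averaged 1165 ± 176 in ceh1 and 2394 ± 801 in Col-0, and 1611 ± 183 in ceh1/eds16 and 1729 ± 26.6 in eds16. It was thus lower in ceh1 than in Col-0, where GSTF2 was higher, and its ceh1/eds16 and eds16 libraries overlapped. Its eds16 libraries (1698 to 1749) all lay below its Col-0 libraries (1755 to 3293), as those of GSTF2 did, and its part in the values of GSTF2 was not tested.

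**Figure D3:**
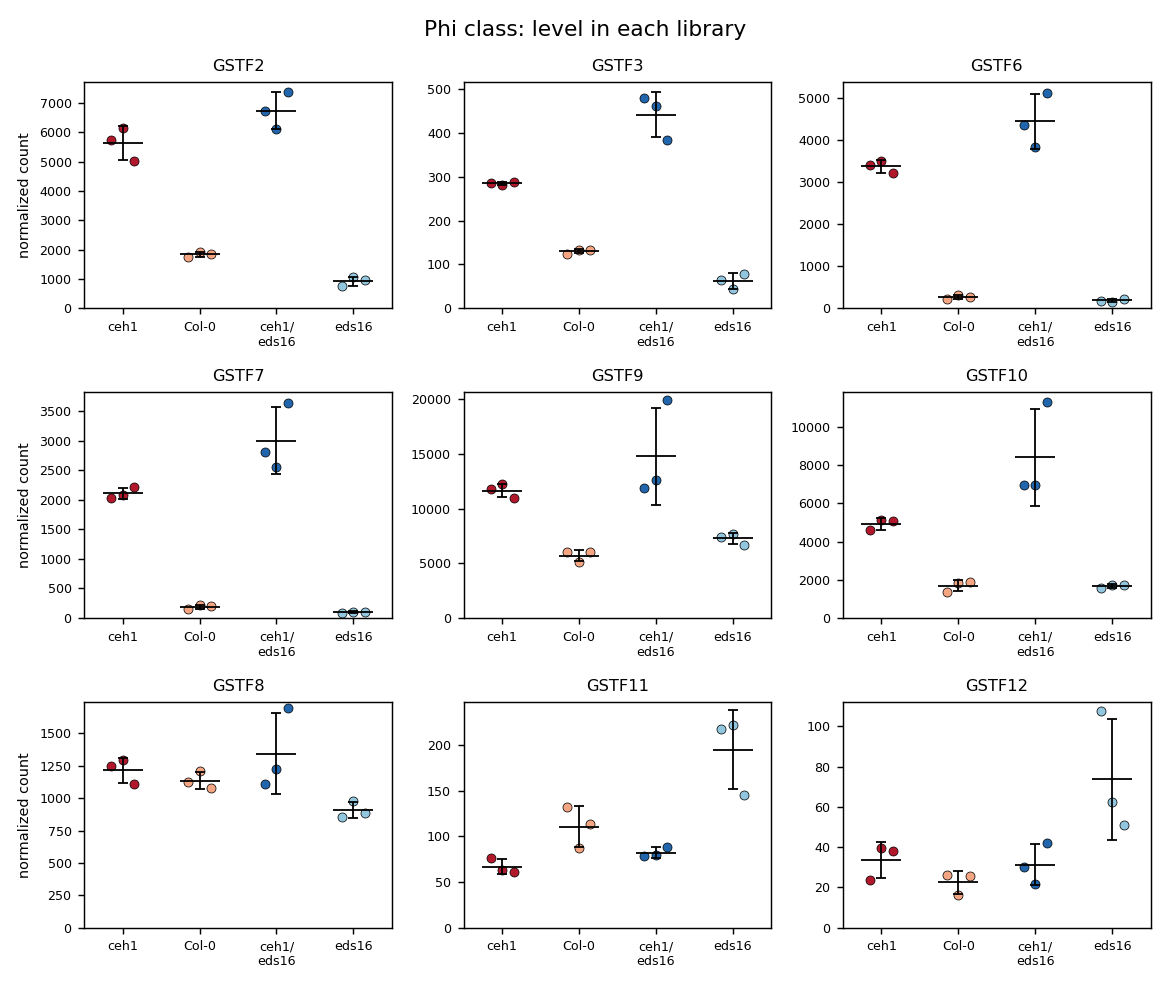
Normalized counts (y axis, from 0, a scale of its own in each panel) of the 9 phi members tested in the 3 libraries of each genotype, as points, with means and SD in black. GSTF2, GSTF3, GSTF6 and GSTF7 were higher in all ceh1 and ceh1/eds16 libraries and lower in eds16 than in Col-0, GSTF9 and GSTF10 were high in ceh1/eds16 replicate 3, and GSTF12 was highest in eds16.

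GSTF9 and GSTF10, neighbours on chromosome 2 and the highest phi members per kilobase in ceh1, rose in both backgrounds. GSTF9 (AT2G30860, positions 13138882 to 13140392, plus strand) read 11754, 12226 and 10964 in ceh1 libraries, against 5986, 5092 and 6006 in Col-0 libraries. It read 11870.4, 12585 and 19897 in ceh1/eds16 libraries, against 7394, 7707 and 6689 in eds16 libraries. Its changes were near each other in the 2 backgrounds, 1.04 ± 0.16 (adjusted p = 6.92e-05, limma) and 0.99 ± 0.16 (adjusted p = 0.000106), and the change in ceh1/eds16 was 0.75 without ceh1/eds16 replicate 3, the highest library. GSTF10 (AT2G30870, positions 13141290 to 13142676), read 4584, 5137 and 5099.8 in ceh1 libraries, against 1357, 1815 and 1875 in Col-0 libraries. In ceh1/eds16 libraries it read 6955, 6942 and 11326, against 1560.2, 1733 and 1724 in eds16 libraries. The groups did not overlap, with a rise of 1.57 ± 0.17 in ceh1 (adjusted p = 1.24e-06, limma) and of 2.29 ± 0.17 in ceh1/eds16 (adjusted p = 1.02e-08), or 2.06 without ceh1/eds16 replicate 3.

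The 3 other phi members tested were GSTF8, GSTF11 and GSTF12. GSTF8, known as an early hydrogen peroxide and auxin response gene, read 1249, 1292 and 1107 in ceh1 libraries, against 1126, 1206 and 1075 in Col-0 libraries, and these overlapped (0.10 ± 0.14, adjusted p = 0.588, limma). It read 1107, 1225 and 1699.6 in ceh1/eds16 libraries, against 857, 976 and 885 in eds16 libraries, a rise of 0.55 ± 0.14 (adjusted p = 0.00434, limma), or 0.36 without ceh1/eds16 replicate 3. GSTF11, a gene of aliphatic glucosinolate synthesis, read 76.3, 63.6 and 60.8 in ceh1 libraries, against 132, 87.4 and 113 in Col-0 libraries. It read 78.3, 79.8 and 88.8 in ceh1/eds16 libraries, against 218, 222 and 145 in eds16 libraries. It fell in both, by 0.71 ± 0.19 (adjusted p = 0.00572, limma) and by 1.21 ± 0.19 (adjusted p = 6.45e-05), and its exons lie wholly within those of NAC045 on the other strand, which averaged 2.52 to 3.67 in the 4 genotypes. GSTF12, which carries anthocyanins to the vacuole, read 23.5, 39.7 and 37.9 in ceh1 libraries, against 26.2, 16.1 and 25.8 in Col-0 libraries (0.55 ± 0.32, adjusted p = 0.159, limma). It read 30.2, 21.6 and 42 in ceh1/eds16 libraries, against 107, 62.5 and 50.8 in eds16 libraries, a fall of 1.19 ± 0.32 (adjusted p = 0.00578, limma). Of its 1096 exon bases, 108 overlap PSY, the phytoene synthase gene on the other strand, which averaged 1640.3 ± 92.9 in ceh1 and 2958 ± 185 in Col-0, and 1823 ± 122 in ceh1/eds16 and 3060.1 ± 179 in eds16.

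GSTU4 had the largest change of the tau members with more than a few reads in each group. This member of the chromosome 2 run (AT2G29460, positions 12626478 to 12627891, minus strand) read 231, 258 and 254 in ceh1 libraries, against 11.9, 14.3 and 10.3 in Col-0 libraries. In ceh1/eds16 libraries it read 537, 478 and 677, against 13.4, 17.3 and 7.25 in eds16 libraries. It rose 20.4-fold in ceh1 (4.25 ± 0.24, adjusted p = 1.04e-09, limma) and 44.5-fold in ceh1/eds16 (5.43 ± 0.24, adjusted p = 3.31e-11). The next gene of the run, GSTU3 (AT2G29470, positions 12628422 to 12629640), read 50.3, 50.3 and 51.8 in ceh1 libraries, against 1.19, 1.78 and 9.01 in Col-0 libraries. It read 38.2, 31.3 and 33.2 in ceh1/eds16 libraries, against 0, 1.33 and 0 in eds16 libraries, which held 1 read in all. On the log2(value + 1) scale it rose by 3.72 ± 0.50 (adjusted p = 1.23e-05, limma) and by 4.73 ± 0.50 (adjusted p = 7.06e-07), values that depend on the pseudocount.

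The other genes of the run did not move alike. GSTU1 read 28.5, 42.4 and 29.9 in ceh1 libraries, against 8.32, 14.3 and 23.2 in Col-0 libraries, and rose by 1.17 ± 0.34 (adjusted p = 0.00835, limma), or by 0.83 with an adjusted p of 0.0552 without Col-0 replicate 1. It averaged 38.5 ± 9.95 in ceh1/eds16 and 22 ± 5.78 in eds16 and was not called there (0.77 ± 0.34, adjusted p = 0.0746, limma). GSTU7 averaged 153 ± 10.6 in ceh1 and 103 ± 10.3 in Col-0, a rise of 0.57 ± 0.21 (adjusted p = 0.0348, limma) that was lost, with adjusted p of 0.0505 to 0.116, under 8 alternatives, among them leaving out Col-0 replicate 1 or 2 or any ceh1 replicate. It rose in ceh1/eds16 by 1.097 ± 0.21 (adjusted p = 0.000482, limma), or by 0.76 without ceh1/eds16 replicate 3, which read 301 where the other 2 libraries read 148 each. Of the 887 exon bases of GSTU7, 559 overlap an annotated gene on the other strand. GSTU5, an auxin-induced gene, averaged 841 ± 33.1 in ceh1 and 813 ± 65.5 in Col-0, and GSTU6 9.13 ± 2.08 and 14.4 ± 5.4 in the same groups. Neither was called in ceh1 (adjusted p = 0.783 and 0.189, limma). The run thus held 4 members that rose in ceh1, of 6 tested, or 3 of 5 without GSTU3, which passed the filter only through the ceh1 groups. In ceh1/eds16 3 of 6 rose, or 2 of 5 without GSTU3. Of all genes tested 25.2% were higher in ceh1 and 22.1% in ceh1/eds16.

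Of the tau members outside the run, GSTU8, GSTU9, GSTU10, GSTU11 and GSTU24 rose in both backgrounds. GSTU8 (AT3G09270, chromosome 3, 2848183 to 2849686) read 125, 128 and 108 in ceh1 libraries, against 5.94, 7.14 and 10.3 in Col-0 libraries. It read 131, 115 and 136 in ceh1/eds16 libraries, against 9.6, 3.99 and 12.4 in eds16 libraries. The rises were 3.81 ± 0.30 (adjusted p = 4.43e-08, limma) and 3.84 ± 0.30 (adjusted p = 2.34e-08). No library of one group reached the other in either background.

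GSTU9 (AT5G62480, chromosome 5, 25088527 to 25089626) read 51.6, 61.6 and 49.8 in ceh1 libraries, against 5.94, 1.78 and 3.86 in Col-0 libraries. It read 48, 35.6 and 44.9 in ceh1/eds16 libraries, against 1.92, 1.33 and 3.11 in eds16 libraries. The groups did not overlap, with rises of 3.60 ± 0.36 (adjusted p = 4.6e-07, limma) and 3.84 ± 0.36 (adjusted p = 1.58e-07). GSTU11 (AT1G69930, chromosome 1, 26337481 to 26338818) read 33.8, 28.5 and 43.9 in ceh1 libraries, against 0, 0 and 1.29 in Col-0 libraries, which held 1 read in all. It read 52.5, 39.9 and 67.4 in ceh1/eds16 libraries, against 0.96, 0 and 3.11 in eds16 libraries. Its fitted log2 changes, which depend on the pseudocount, were 4.77 ± 0.50 (adjusted p = 8.4e-07, limma) and 4.73 ± 0.50 (adjusted p = 7.23e-07).

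GSTU10 and GSTU24 also rose in both backgrounds. GSTU10 (AT1G74590, chromosome 1, 28023627 to 28024860) averaged 156 ± 17.5 in ceh1 and 36.7 ± 12.4 in Col-0, and 179 ± 15 in ceh1/eds16 and 33.8 ± 2.49 in eds16. Its rises were 2.11 ± 0.21 (adjusted p = 6.05e-07, limma) and 2.37 ± 0.21 (adjusted p = 1.14e-07). GSTU24, an enzyme known for conjugating the explosive trinitrotoluene, read 33.4, 35.8 and 28.9 in ceh1 libraries, against 3.57, 8.92 and 9.01 in Col-0 libraries. It read 52.5, 32.4 and 48.8 in ceh1/eds16 libraries, against 13.4, 7.98 and 4.14 in eds16 libraries. The rises were 2.13 ± 0.39 (adjusted p = 0.000246, limma) and 2.35 ± 0.39 (adjusted p = 9.32e-05). Its neighbour GSTU26 was not called in either (adjusted p = 0.734 and 0.775, limma), and GSTU25 between them, which acts on the same explosive, did not pass the filter.

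**Figure D4:**
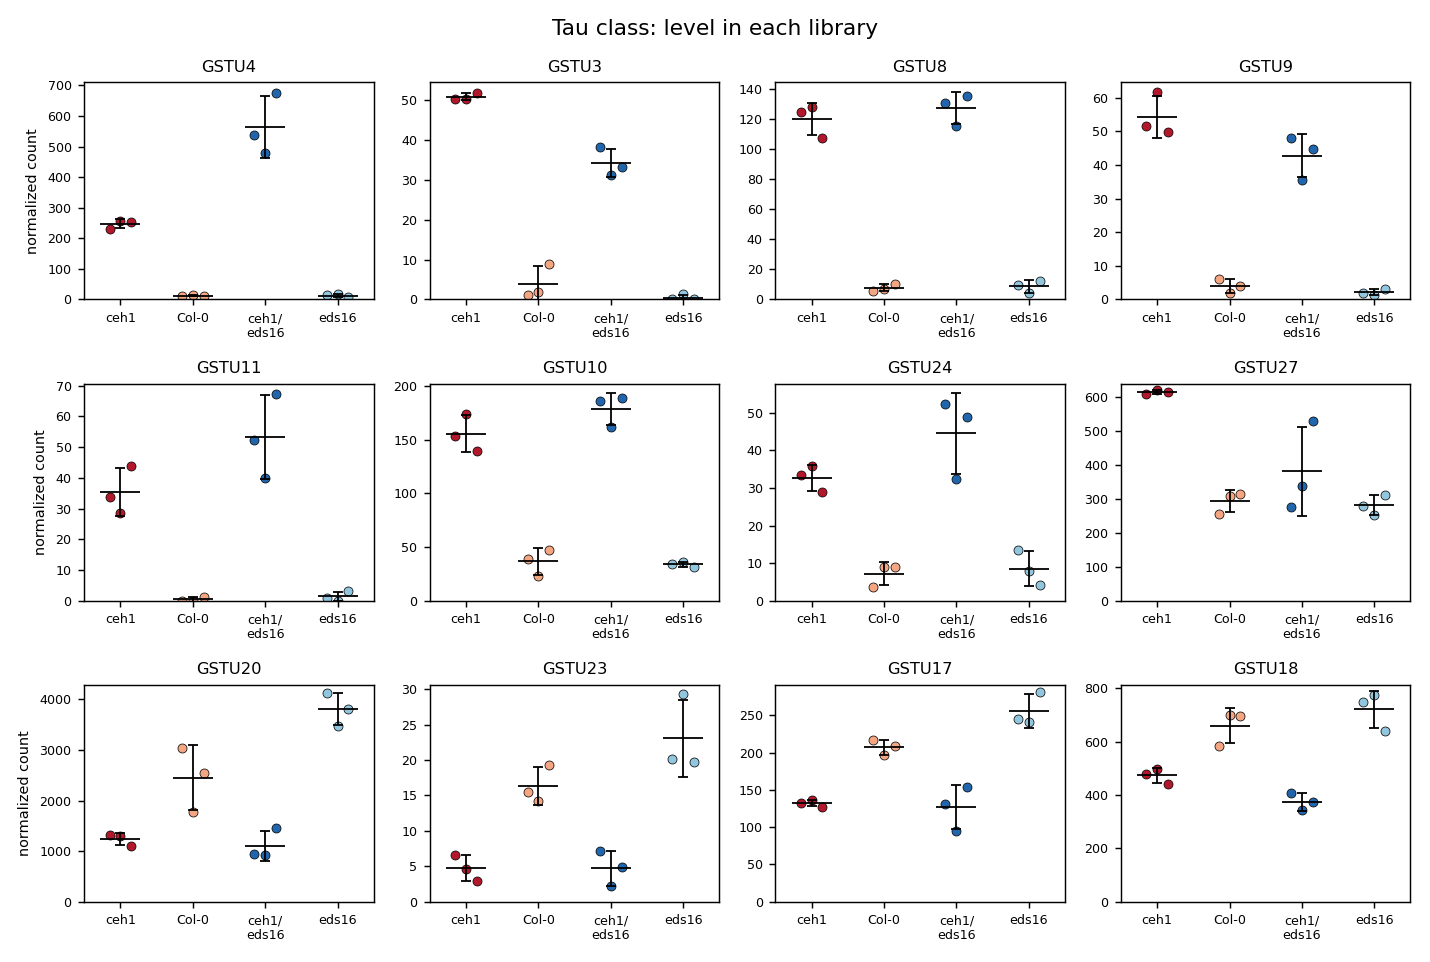
Normalized counts (y axis, from 0, a scale of its own in each panel) of 12 tau members in the 3 libraries of each genotype, as points, with means and SD in black. GSTU4, GSTU3, GSTU8, GSTU9, GSTU11, GSTU10 and GSTU24 were higher in all ceh1 and ceh1/eds16 libraries, GSTU27 was high in ceh1, and GSTU20, GSTU23, GSTU17 and GSTU18 were lower in all ceh1 and ceh1/eds16 libraries than in any Col-0 or eds16 library.

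The tau members that fell included GSTU20, the highest of them per kilobase in Col-0. This gene, tied to aliphatic glucosinolate synthesis (AT1G78370, chromosome 1, 29484120 to 29485389), read 1324, 1301 and 1110.5 in ceh1 libraries, against 3039, 1770.0 and 2541 in Col-0 libraries. It read 941, 931 and 1455 in ceh1/eds16 libraries, against 4116, 3476 and 3818 in eds16 libraries. It fell by 0.95 ± 0.19 (adjusted p = 0.000518, limma) and by 1.81 ± 0.19 (adjusted p = 5.57e-07). Its neighbour GSTU19, which is induced by herbicide safeners and is highly active on xenobiotics (AT1G78380, positions 29486387 to 29488007), read 2865, 2992 and 2843 in ceh1 libraries, against 2642, 2801 and 2846 in Col-0 libraries. These overlapped, with a change of 0.07 ± 0.15 (adjusted p = 0.714, limma), and in ceh1/eds16 the change was 0.09 ± 0.15 (adjusted p = 0.658). GSTU23, in the same run, averaged 4.74 ± 1.81 in ceh1 and 16.3 ± 2.64 in Col-0, and 4.72 ± 2.48 in ceh1/eds16 and 23 ± 5.4 in eds16, and fell by 1.63 ± 0.40 (adjusted p = 0.0027, limma) and by 2.15 ± 0.40 (adjusted p = 0.000287). Having passed the filter only through the Col-0 and eds16 libraries, GSTU23 had to be lower with ceh1.

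GSTU17 and GSTU18, which overlap by 71 bases on the same strand of chromosome 1, fell together in both backgrounds. GSTU17, a gene of light and drought signalling also called ERD9, read 132, 136 and 128 in ceh1 libraries, against 216, 196 and 209 in Col-0 libraries. It read 132, 94.9 and 153 in ceh1/eds16 libraries, against 246, 241 and 282 in eds16 libraries. The falls were of modest size, 0.65 ± 0.16 (adjusted p = 0.00281, limma) and 1.03 ± 0.16 (adjusted p = 4.41e-05), and no library of one group reached the other. GSTU18 averaged 473 ± 29 in ceh1 and 659.5 ± 66.7 in Col-0, and 374 ± 32.7 in ceh1/eds16 and 721 ± 69.9 in eds16. It fell by 0.48 ± 0.12 (adjusted p = 0.00389, limma), a call lost at an adjusted p of 0.123 when libraries were scaled to equal totals, and by 0.94 ± 0.12 (adjusted p = 6.98e-06). CACGTG was found upstream of these 2 tau members, where that of GSTU18 lies within the GSTU17 gene. It was also found upstream of GSTF6, which rose in both backgrounds, and its part in any of these changes was not tested.

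GSTU13 and GSTU27, like GSTU1, were called in ceh1 and not in ceh1/eds16, and for none of the 3 did the test of the difference between backgrounds pass with all libraries. GSTU13, an enzyme of the indole glucosinolate pathway of immunity, read 215, 208 and 210.3 in ceh1 libraries, against 262, 384 and 323 in Col-0 libraries, and fell by 0.59 ± 0.20 (adjusted p = 0.0211, limma). This call ended when libraries were scaled to equal totals, or when the second ceh1 library or either of Col-0 replicates 2 and 3 was left out (adjusted p from 0.0531 to 0.11). It read 264, 334 and 531 in ceh1/eds16 libraries, against 292, 251 and 312 in eds16 libraries (0.34 ± 0.20, adjusted p = 0.18, limma), and the interaction was 0.94 ± 0.28 (adjusted p = 0.0664), or 0.66 (adjusted p = 0.037) without ceh1/eds16 replicate 3. GSTU27 read 612, 623 and 615 in ceh1 libraries, against 257, 310.5 and 315 in Col-0 libraries, and rose by 1.07 ± 0.18 (adjusted p = 0.000123, limma). It read 277, 339 and 530.1 in ceh1/eds16 libraries, against 280.2, 253 and 313 in eds16 libraries (0.39 ± 0.18, adjusted p = 0.0939, limma), with an interaction of -0.68 ± 0.25 (adjusted p = 0.132), or -0.94 (adjusted p = 0.00215) without ceh1/eds16 replicate 3. GSTU16, GSTU19, GSTU26, GSTU28, GSTU5 and GSTU6 were called in neither background, with log2 changes from -0.57 to 0.21 in ceh1 and from -0.38 to 0.16 in ceh1/eds16. Without ceh1/eds16 replicate 3, GSTU16 was called as lower in ceh1/eds16 against eds16 (-0.56, adjusted p = 0.00477, limma), where it stood at -0.38 (adjusted p = 0.0699) with all libraries.

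In ceh1/eds16 against eds16, 21 of 30 members were called, against 42.3% of all genes tested. All 9 phi members tested changed, 7 of them higher and 2 lower, and of the 21 tau members 8 rose and 4 fell, where the background was 22.1% higher and 20.2% lower. Without the 5 tau members that passed only through the ceh1 groups, 3 of 16 rose and 4 of 16 fell. These 16 still held GSTU23, which had to be lower with ceh1, and no such genes were left out of the background. The median log2 change was 2.29 for phi, 0.34 for tau, or 0.12 for these 16 tau members, and 0.01 for all genes tested. The tau median minus the phi median was -1.95, and -0.60 with no filter other than a mean above 0. With a filter at 50 it was -2.32, with 4 tau members higher and 1 phi member lower. In both backgrounds 14 members were higher, 8 tau and 6 phi, and 5 were lower, 4 tau and 1 phi (GSTF11). Without the 5 tau members that passed only through the ceh1 groups, 9 were higher in both, 3 tau and 6 phi. No member was higher in one and lower in the other among those called in both. The share of all genes called alike in both backgrounds was not computed, so these joint counts cannot be set against it.

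The effect of ceh1 differed between the backgrounds for 5 phi members, 4 with a positive and 1 with a negative difference, and for no tau member. Of all genes tested 4.87% were called, 3.08% as higher and 1.79% as lower. The count of 0 of 21 tau members was near that share, so it does not set the tau class apart from other genes. The difference, the log2 change in eds16 background minus that with ICS1 intact, was 1.73 ± 0.25 for GSTF3 (adjusted p = 0.000932, limma), 1.41 ± 0.21 for GSTF7 (adjusted p = 0.00121), 1.27 ± 0.19 for GSTF2 (adjusted p = 0.00107) and 0.94 ± 0.21 for GSTF6 (adjusted p = 0.0175). These 4 rose more in ceh1/eds16 against eds16 than in ceh1 against Col-0. For GSTF12 it was -1.73 ± 0.45 (adjusted p = 0.0354, limma). The GSTF12 call was lost, at adjusted p from 0.0506 to 0.105, under 11 of 22 alternatives, 8 of which left out 1 library: Col-0 replicate 1 or 2, replicate 2 or 3 of ceh1, the first or second eds16 library, or the first or second of ceh1/eds16. The GSTF6 call was lost, at adjusted p from 0.0502 to 0.0568, without Col-0 replicate 2, the first ceh1 library or the first or second of eds16, and without the variance trend.

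For the 21 tau members the count of 0 in the interaction stood beside 6 with an unadjusted p under 0.05, 0 by edgeR and 1, GSTU13, by DESeq2. GSTU4 (1.18 ± 0.34, adjusted p = 0.0579, limma), GSTU13 (0.94 ± 0.28, adjusted p = 0.0664) and GSTU20 (-0.86 ± 0.26, adjusted p = 0.07) were nearest to the threshold. Without ceh1/eds16 replicate 3 the count over both classes was 10, of which 5 were tau members, with GSTU13 and GSTU4 higher and GSTU20, GSTU27 and GSTU16 lower. In that fit 1684 of all 18289 genes tested were higher and 1329 lower, against 564 and 327 with all libraries. The count of members thus moved together with that of all genes. It was 3 without Col-0 replicate 2 or eds16 replicate 1, where 280 and 275 of all genes were higher and 152 and 136 lower. Leaving out eds16 replicate 2 or ceh1/eds16 replicate 1 gave 1 tau member higher, and leaving out Col-0 replicate 1 gave 1 lower. Of the calls over both classes 80% were higher, or 66.7% under either of the other scalings, with 1 tau member lower in each.

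In eds16 against Col-0, 7 of 30 members were called, 6 of 9 phi and 1 of 21 tau. Of all genes tested 4.6% were called there, 1.63% as higher and 2.96% as lower. The tau share of 4.76% was thus near that of all genes tested. GSTF3 fell by 1.101 ± 0.18 (adjusted p = 0.00203, limma), GSTF2 by 1.01 ± 0.13 (adjusted p = 0.000317), GSTF7 by 0.91 ± 0.15 (adjusted p = 0.00221) and GSTF6 by 0.55 ± 0.15 (adjusted p = 0.0432). Their libraries given above did not overlap between eds16 and Col-0. GSTF12 rose by 1.62 ± 0.32 (adjusted p = 0.00805, limma), GSTF11 by 0.80 ± 0.19 (adjusted p = 0.0254) and GSTU5 by 0.51 ± 0.14 (adjusted p = 0.0499). GSTU5 read 1136, 1229 and 1095 in eds16 libraries, against 738, 839 and 861 in Col-0 libraries. GSTU20 averaged 3804 ± 320.4 in eds16 and 2449.8 ± 639 in Col-0, a change of 0.67 ± 0.19 just short of the threshold (adjusted p = 0.0512, limma).

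These calls were sensitive to single libraries. The count in eds16 against Col-0 was 3 without Col-0 replicate 2 or eds16 replicate 1, 4 without Col-0 replicate 3 or eds16 replicate 2, and 11 without ceh1/eds16 replicate 3. The calls over all 18289 genes tested moved as well, from 299 higher and 542 lower with all libraries. They were 67 and 170 without Col-0 replicate 2, and 80 and 208 without eds16 replicate 1. Without ceh1/eds16 replicate 3 they were 752 and 1029. Leaving out ceh1/eds16 replicate 3 added GSTF9, GSTU16 and GSTU20 as higher and GSTF8 as lower. Their log2 changes were the same with and without it (0.35, 0.47, 0.67 and -0.33). Libraries of ceh1 and ceh1/eds16 do not enter this difference. Leaving 1 of them out alters only the shared estimate of spread and the adjustment of p. The calls of GSTF12 and GSTF11 as higher were both lost without Col-0 replicate 2 or eds16 replicate 1, and that of GSTF11 also without Col-0 replicate 3 or eds16 replicate 2. The call of GSTU5 was lost under 14 alternatives, among them leaving out any 1 of the Col-0, ceh1 or eds16 libraries, and 3 tau members were higher without the second or the third ceh1/eds16 library. The call of GSTF6 was lost under 13 alternatives, among them leaving out Col-0 replicate 2 or 3, any ceh1 library, the first or second eds16 library, or ceh1/eds16 replicate 1. Of the 7 calls 42.9% were higher, or 57.1% with scaling to equal upper quartile.

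Loss of ICS1 in plants with ceh1 went with higher levels of some members. In ceh1/eds16 against ceh1, 7 of 30 members were called, 6 higher and 1 lower, where 10.2% of all genes tested were called, 5.93% as higher and 4.24% as lower. GSTU4 rose by 1.17 ± 0.24 (adjusted p = 0.0044, limma), and its ceh1/eds16 libraries (478 to 677) were all above its ceh1 libraries (231 to 258). GSTU13 rose by 0.77 ± 0.20 (adjusted p = 0.0196, limma), GSTF10 by 0.73 ± 0.17 (adjusted p = 0.00964), GSTF3 by 0.63 ± 0.18 (adjusted p = 0.0321), GSTU5 by 0.61 ± 0.14 (adjusted p = 0.00905) and GSTF7 by 0.49 ± 0.15 (adjusted p = 0.0439). GSTU27 fell by 0.74 ± 0.18 (adjusted p = 0.0127, limma). Without ceh1/eds16 replicate 3 the GSTF7 call was lost (0.35, adjusted p = 0.0888, limma), the rises of GSTU13 and GSTF10 were both 0.49 and that of GSTU5 was 0.42, and GSTU27 stood at -1.01 (adjusted p = 3.58e-05). GSTF2 and GSTF6 stood at 0.26 ± 0.13 (adjusted p = 0.253, limma) and 0.39 ± 0.15 (adjusted p = 0.116). GSTF2, GSTF3, GSTF6 and GSTF7 thus stood lower in eds16 than in Col-0, and none of the 4 stood lower in ceh1/eds16 than in ceh1.

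The count of 7 was 3 without ceh1 replicate 1 and 4 without ceh1 replicate 2 or the first ceh1/eds16 library. Over all genes tested, 1084 were higher and 776 lower with all libraries. These were 614 and 410 without ceh1 replicate 1, 666 and 455 without ceh1 replicate 2, and 854 and 613 without ceh1/eds16 replicate 1. GSTU27 was lost without ceh1/eds16 replicate 1, and GSTU13 without ceh1 replicate 1 or 2. Without ceh1 replicate 1 no phi member passed in limma, and without ceh1 replicate 2, ceh1 replicate 3 or the first ceh1/eds16 library 1 did. With only these 6 libraries in the fit, 2 calls were left. The highest library of GSTU13, GSTF10 and GSTU5 was ceh1/eds16 replicate 3 in each case. Of the calls 85.7% were higher, or 66.7% with scaling to equal totals, where 2 tau members fell.

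**Figure D5:**
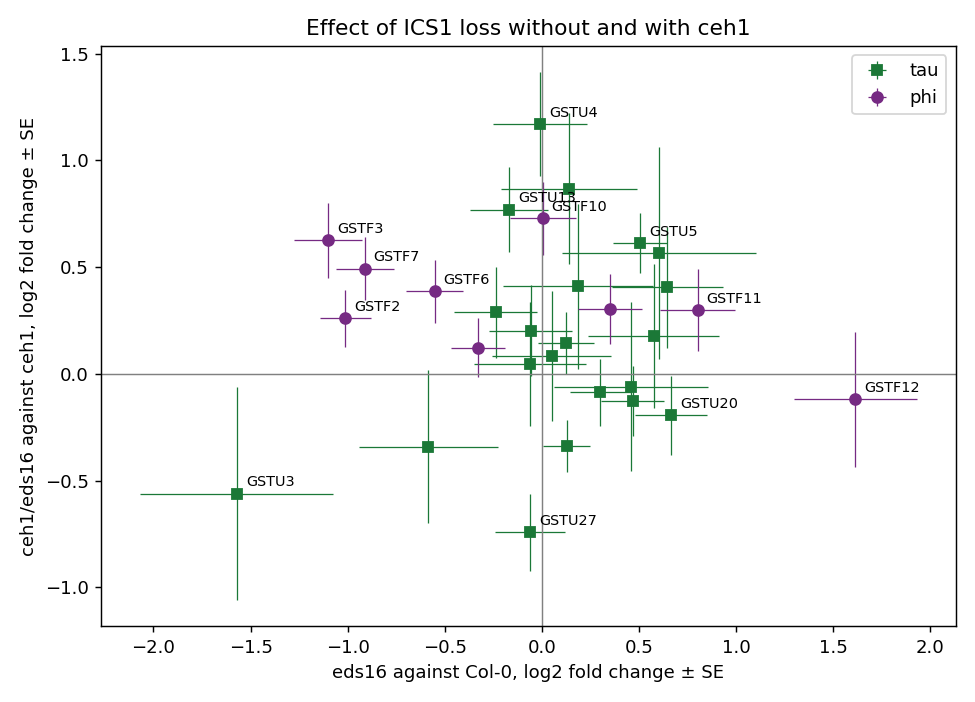
Log2 fold changes with standard errors of the 30 members tested, for eds16 against Col-0 (x axis) and ceh1/eds16 against ceh1 (y axis), with tau members as green squares and phi members as purple circles. GSTF2, GSTF3, GSTF6 and GSTF7 lay left of 0 on the x axis and above 0 on the y axis, GSTF12 lay at 1.62 on the x axis, and GSTU4 lay at 1.17 on the y axis.

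The 8 members that did not pass the filter averaged at most 3.52 in Col-0 and eds16. GSTU2 averaged 7.78 ± 3.05 in ceh1 and 0.858 ± 1.49 in Col-0, and 7.25 ± 4.56 in ceh1/eds16 and 0.789 ± 0.699 in eds16. GSTU12 averaged 4.11 ± 0.475 in ceh1 and 0.858 ± 1.49 in Col-0, and 4.61 ± 0.948 in ceh1/eds16, with 0 reads in eds16. GSTU25, GSTU22, GSTU15, GSTU14 and GSTF13 had at most 5.34 in any library, and GSTF14 averaged 3.61 ± 2.26 in ceh1, 1.39 ± 1.24 in Col-0, 4.23 ± 1.97 in ceh1/eds16 and 3.52 ± 1.13 in eds16. GSTF4, a phi gene outside the 38, fell in both backgrounds, with 14.4 ± 1.22 in ceh1 and 31.4 ± 9.96 in Col-0 (-1.04 ± 0.30, adjusted p = 0.0086, limma).

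Genes that supply or use glutathione, and those of the lists below, were taken from lists chosen with earlier results of these data known. Their counts can be set beside the shares of all genes called given above, but are not independent of these data. Of the 10 genes of sulfate assimilation and cysteine synthesis, 2 rose and 7 fell in ceh1, and 6 fell in ceh1/eds16, where the other 4 did not pass the test. APR2, the main adenosine phosphosulfate reductase gene, averaged 563 ± 68.7 in ceh1 and 1445 ± 11.1 in Col-0, and 286 ± 23 in ceh1/eds16 and 1248 ± 110.0 in eds16, and fell by 1.37 ± 0.12 (adjusted p = 9.16e-08, limma) and by 2.12 ± 0.12 (adjusted p = 3.02e-10). OASB, a plastid cysteine synthase gene, fell by 1.20 ± 0.11 and by 0.83 ± 0.11, and APR1 by 1.07 ± 0.14 and by 1.28 ± 0.14. Of 7 genes of glutathione synthesis and redox cycling, 2 rose and 3 fell in ceh1, and 3 rose and 3 fell in ceh1/eds16. The peroxidase gene GPX6 rose by 1.17 ± 0.13 in ceh1, where GPX1 of the plastid fell by 1.31 ± 0.12 and the plastid reductase gene GR2 by 0.91 ± 0.10. Of 8 tested genes of glutathione transport and breakdown, 2 rose and 2 fell in ceh1, and 2 rose and 1 fell in ceh1/eds16.

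Other glutathione transferase classes held calls in both directions. Of 11 tested lambda, zeta, theta, dehydroascorbate reductase and related genes, 4 rose and 1 fell in ceh1, and 3 rose and 2 fell in ceh1/eds16. Without GSTL1, which passed the filter only through the ceh1 groups, 3 of 10 rose in ceh1 and 2 in ceh1/eds16. GSTL1 averaged 27.6 ± 8.77 in ceh1 and 1.39 ± 1.24 in Col-0, and GSTZ1, of tyrosine breakdown, rose by 1.17 ± 0.15 in ceh1 and by 0.83 ± 0.15 in ceh1/eds16. Of 5 ABCC genes listed for vacuolar transport, 2 rose and 3 fell in ceh1, and 2 rose in ceh1/eds16, where the other 3 did not pass. ABCC3 averaged 1840.2 ± 287 in ceh1 and 523 ± 81.1 in Col-0, and 1692 ± 261 in ceh1/eds16 and 349 ± 44.4 in eds16, and rose by 1.81 ± 0.15 (adjusted p = 8.63e-08, limma) and by 2.27 ± 0.15 (adjusted p = 3.66e-09).

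Genes of the response to xenobiotics and oxidised lipids rose in ceh1 in 10 of 13 tested members and in ceh1/eds16 in 11 of 13, and the others did not pass the test. Without DTX1 and CYP710A1, which averaged under 10 in both Col-0 and eds16 and passed the filter only through the ceh1 groups, 8 of 11 rose in ceh1 and 9 of 11 in ceh1/eds16. The cytochrome P450 gene CYP81D8 averaged 280 ± 40.2 in ceh1 and 39.3 ± 13.4 in Col-0, and 251 ± 19.6 in ceh1/eds16 and 17.9 ± 3.65 in eds16. The transporter gene DTX1 averaged 67.4 ± 13.2 in ceh1 and 2.44 ± 2.38 in Col-0, and 77.6 ± 25.3 in ceh1/eds16 and 1.23 ± 1.34 in eds16. Of 9 genes of TGA factors and their partners, 6 rose in each background and the other 3 did not pass, or 5 of 8 rose without GRX480, which passed the filter in the same way. TGA5 rose by 1.42 ± 0.17 and by 1.11 ± 0.17, and TGA3 by 0.93 ± 0.12 and by 0.69 ± 0.12. SCL14, a partner of class II TGA factors in the xenobiotic response, averaged 316 ± 33.8 in ceh1 and 390.0 ± 51.8 in Col-0 and was not called (adjusted p = 0.0949, limma). GRX480 (ROXY19), a glutaredoxin that binds TGA factors, averaged 108 ± 8.95 in ceh1 and 6.80 ± 3.04 in Col-0, and 33 ± 23.1 in ceh1/eds16 and 2.41 ± 1.29 in eds16. It was the member of that list that fell in ceh1/eds16 against ceh1.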

How the data were processed

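Polyadenylated RNA of 12 rosette libraries was sequenced, 3 per genotype. Per the submitters' processing notes, TopHat2, DESeq2 and TAIR10 were used; versions, the read counter and its use of strand are not stated in those sources. Each deposited value is a signal per gene and library that the authors made by dividing read counts by a size factor, and all values came out as whole reads within 0.01. They were tested as log2(value + 1), which understates fold changes of low genes, with limma 3.58.1 (R 4.3.3) and a variance trend, in 1 model of all 4 groups. Of 33602 genes, 18289 had a mean of at least 10 and were tested, and p-values were adjusted over these by Benjamini-Hochberg at 0.05. edgeR 4.0.16 and DESeq2 1.42.0 on the recovered reads, other filters, pseudocounts, scalings and left-out libraries were alternatives, and the procedure was tested on simulated data. Members named by library were the 6 largest called changes in each direction of each ceh1 comparison, all interaction calls, the 5 largest calls of each eds16 comparison and members with a well-known role. From the other lists up to 3 called genes were named; SCL14, GSTF4, GSTU1 and GSTU7 were named outside this rule after their values were seen. Members and lists were chosen with earlier results of these data known. Precision is limited by depth and by 3 replicates, and read counts carry no molecular identifiers. RefSeq sequence is of TAIR10.1.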

Additional observations from a re-analysis of the deposited data

Results flagged for a closer look

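For 5 phi members the effect of ceh1 differed between plants without and with working ICS1, by the interaction term of the limma fit. The difference, the log2 change in ceh1/eds16 against eds16 minus that in ceh1 against Col-0, was 1.27 for GSTF2, 1.73 for GSTF3, 0.94 for GSTF6 and 1.41 for GSTF7. It was -1.73 for GSTF12. Reads of GSTF2 and GSTF3, and of GSTF6 and GSTF7, could be split between the genes of a pair, so that these are not 4 independent observations.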

How the results depend on the processing

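Of 62 calls of members over the 5 comparisons, 46 were kept under all alternatives run for them, and none changed direction. With a filter at 50, tau members higher were 5 in ceh1 and 4 in ceh1/eds16, phi members lower 1 in ceh1/eds16 and 0 in the interaction, and phi members higher 1 in eds16. The tau minus phi median was then -1.21, -2.32 and -0.81 in ceh1, ceh1/eds16 and the interaction. With no filter but a mean above 0 it was -0.18, -0.60, -0.415 and, in eds16, 0.13, with 0 phi members lower in the interaction and 0 tau members higher in eds16. Scaling to equal totals gave 3 tau members lower in ceh1, 1 in the interaction and 2 in ceh1/eds16 against ceh1, where 1 phi member was higher, and 2 tau members higher in eds16. Upper quartile scaling gave 1 tau member lower in the interaction and 2 higher in eds16. A pseudocount of 5 gave 1 tau member higher in the interaction, and one of 0.5 gave 0 in eds16. DESeq2 gave 1 tau member higher in the interaction and 2 in eds16, and edgeR 0 in eds16. Without the variance trend the interaction had 3 calls and 0 phi members lower, eds16 had 0 tau members higher, and ceh1/eds16 against ceh1 had 4 calls and 1 phi member higher. With only the groups compared, eds16 had 3 tau members higher, and ceh1/eds16 against ceh1 had 2 calls, with 1 tau and 1 phi member higher and 0 tau lower. The replicate block gave 0 phi members lower in the interaction and 0 tau members higher in eds16. Replicate numbers did not pair the libraries: same-numbered libraries had correlations of deviations between -0.448 and 0.118, and 4 of 12 libraries correlated best with their own number.

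Leaving out 1 library at a time gave 20 to 22 calls in ceh1 (tau higher 8 to 10, tau lower 4 to 5) and 21 to 23 in ceh1/eds16 (tau higher 8 to 10, tau lower 4 to 5). The interaction had 3 to 10 calls, with tau higher 0 to 2, tau lower 0 to 3 and phi lower 0 to 1. In eds16 there were 3 to 11, with tau higher 0 to 3, phi higher 0 to 3 and phi lower 3 to 5. In ceh1/eds16 against ceh1 there were 3 to 7, with tau higher 2 to 3, tau lower 0 to 1 and phi higher 0 to 3. Over all genes tested, calls higher ran from 241 to 1684 in the interaction, 67 to 752 in eds16 and 614 to 1706 in ceh1/eds16 against ceh1. Those lower ran from 105 to 1329, 170 to 1029 and 410 to 1541. The median difference ranged from -0.99 to -0.85 in ceh1, -2.03 to -1.84 in ceh1/eds16, -0.81 to -0.58 in the interaction, 0.37 to 0.61 in eds16 and -0.33 to -0.12 in ceh1/eds16 against ceh1. A left-out library of a group outside a comparison leaves the log2 changes as they were. It alters only the shared estimate of spread and the adjustment of p. The cause of the other moves was not tested. Depth limits GSTU3 and GSTU11, since the eds16 libraries together held 1 read of GSTU3 and the Col-0 libraries 1 read of GSTU11.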
